A study of Mus musculus with 6 samples.

Results

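The expression of 10 genes that encode nuclear effectors, targets and feedback regulators of canonical Wnt signalling was examined in the distal mandible of mouse embryos. The genes are Lef1, Tcf7, Axin2, Nkd1, Nkd2, Notum, Sp5, Lgr5, Znrf3 and Rnf43. They were chosen by gene symbol, and all 10 were found among the 21827 genes listed for each library. Of the 10 genes, 9 reached 1 TPM in at least 3 of the 6 libraries and entered the statistical test, and Sp5 did not. TPM is a transcript abundance corrected for length and defined to reach the same total in each library. The listed genes did not share 1 total. Their sum ran from 716208 TPM in the control-labelled library of litter 1 to 735601 TPM in that of litter 2.

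Polyadenylated RNA was sequenced from the tip of the lower jaw of 6 single embryos at stage E10.75. Each of 3 litters gave 1 embryo labelled mutant, homozygous for the floxed alleles of Msx1 and of Msx2, and 1 embryo labelled control, with a single floxed Msx1 allele but homozygous for floxed Msx2. All 6 embryos carried Hand2-Cre, which recombines floxed alleles where Hand2 regulatory sequence is active, and 1 copy of the Rosa26mTmG reporter, whose GFP guided the dissection. No embryo carried an unfloxed Msx2 allele, so the labels differ at Msx1 only, and tissue in which the Cre is not active keeps its floxed alleles.

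In canonical Wnt signalling, a Wnt ligand bound to Frizzled and LRP receptors stops the destruction of beta-catenin, which then enters the nucleus and activates transcription together with TCF/LEF factors. Many of the genes switched on in this way restrain the pathway, and their transcripts are widely used as a readout of pathway activity. In the developing face, Wnt signals pass between the oral epithelium and the underlying mesenchyme, and Lef1 and Msx1 are known for their roles in tooth formation. The transcripts were measured in whole tissue, so fewer cells of a type and less RNA per cell cannot be told apart.

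TCF/LEF factors bind DNA at short sites, and a promoter is shown for Sp5, which held matches to such a site, beside that of Axin2, the standard readout gene, which held none. The motif searched was CTTTGNN, with A or T at each N, on either strand and in the 250 bases before each transcription start (RefSeq, GRCm38.p6). Of the 10 genes, 7 had a promoter in the RefSeq table, and a match was found in 2 of them, Sp5 and 1 of the 4 Lef1 promoters. Tcf7 and Rnf43 had 2 promoter windows each, and Axin2, Nkd1, Nkd2 and Sp5 had 1 each. That Lef1 promoter (chr3:131156044-131156343, plus strand) lies inside the gene, whose span starts at 131110471. Among all 32851 promoter windows 14.8% held at least 1 match and 1.43% held 2 or more. These shares count windows, whereas the 2 of 7 counts genes, some with several windows. The Sp5 window (chr2:70474673-70474922, plus strand, 46% G and C) and the Axin2 window (chr11:108920099-108920348, plus strand, 69.2% G and C) are printed 5′ to 3′, with matches in capitals.
Sp5: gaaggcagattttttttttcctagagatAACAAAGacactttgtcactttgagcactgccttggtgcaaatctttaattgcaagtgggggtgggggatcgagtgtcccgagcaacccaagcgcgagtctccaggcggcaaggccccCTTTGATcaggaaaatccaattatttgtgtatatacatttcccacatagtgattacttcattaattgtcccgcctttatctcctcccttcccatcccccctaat
Axin2: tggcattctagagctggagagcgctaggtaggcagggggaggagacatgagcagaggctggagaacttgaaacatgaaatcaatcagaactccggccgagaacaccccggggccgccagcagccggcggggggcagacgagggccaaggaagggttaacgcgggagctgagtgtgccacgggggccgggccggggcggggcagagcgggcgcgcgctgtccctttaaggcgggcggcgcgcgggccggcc
The Sp5 matches start 222 and 104 bases before the transcription start, on the minus and plus strand respectively. The Sp5 window also held 3 matches to TAATTG, a core sequence that many homeodomain proteins bind, at 176, 87 and 43 bases before the start, whereas 7.17% of all windows held any. None of the other promoters in the table for these genes held a TAATTG match. These matches describe the letters only and were not tested for binding.

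Msx1, the gene whose floxed dose separates the labels, was low in the mutant-labelled library of litter 1 (1.90 TPM) and high in its littermate labelled control (84.1 TPM). In litter 2 it was at 78.8 TPM under the mutant label and 2.61 TPM under the control label, and in litter 3 at 73.3 and 1.99 TPM. The libraries of litters 2 and 3 thus go against their labels. For this reason each library keeps its label below. Littermates are also set side by side by their Msx1 level (under 10 TPM against over 50 TPM), per litter and without a test, because that order was read from the data. The number of genes at 1 TPM or more ran from 11929 to 12132 per library, and the number of reads is unknown. All 8 distal arch mesenchyme markers examined, among them Hand2, Prrx1 and Dlx5, reached 1 TPM in at least 3 libraries. Their summed level was 965 to 1049 TPM in the libraries with less Msx1 and 1051 to 1077 TPM in the others. After scaling by the median of ratios these ranges overlapped, at 997 to 1026 TPM and 1019 to 1086 TPM. The part of this difference in the results was not tested. The epithelial markers summed to 121 to 141 TPM, so the dissected tissue held epithelial RNA as well, and red blood cell markers reached 22180 TPM in the mutant-labelled library of litter 1 against 6811 to 9617 TPM in the other 5.

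The 10 genes spanned a wide range of levels. Lef1 and Axin2, at medians of 47.4 and 37.7 TPM over the 6 libraries, stood highest, followed by Znrf3 at 32.9 TPM. A middle tier held Nkd1, Tcf7 and Nkd2 at 11.5, 11.0 and 10.9 TPM. Lgr5 was at 2.46 TPM and Rnf43 at 1.41 TPM, and the lowest were Notum at 0.771 TPM and Sp5 at 0.361 TPM. The ranges over the 6 libraries overlapped between Lef1 and Axin2, between neighbours of the middle tier, and along the run of Rnf43, Notum and Sp5. They did not overlap between Axin2 and Znrf3, between Znrf3 and Nkd1, between Nkd2 and Lgr5, or between Lgr5 and Rnf43. Of the 10 genes, 5 (Axin2, Tcf7, Notum, Znrf3 and Rnf43) lie on chromosome 11, which holds 7.46% of the listed genes that could be placed.

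**Figure D1:**
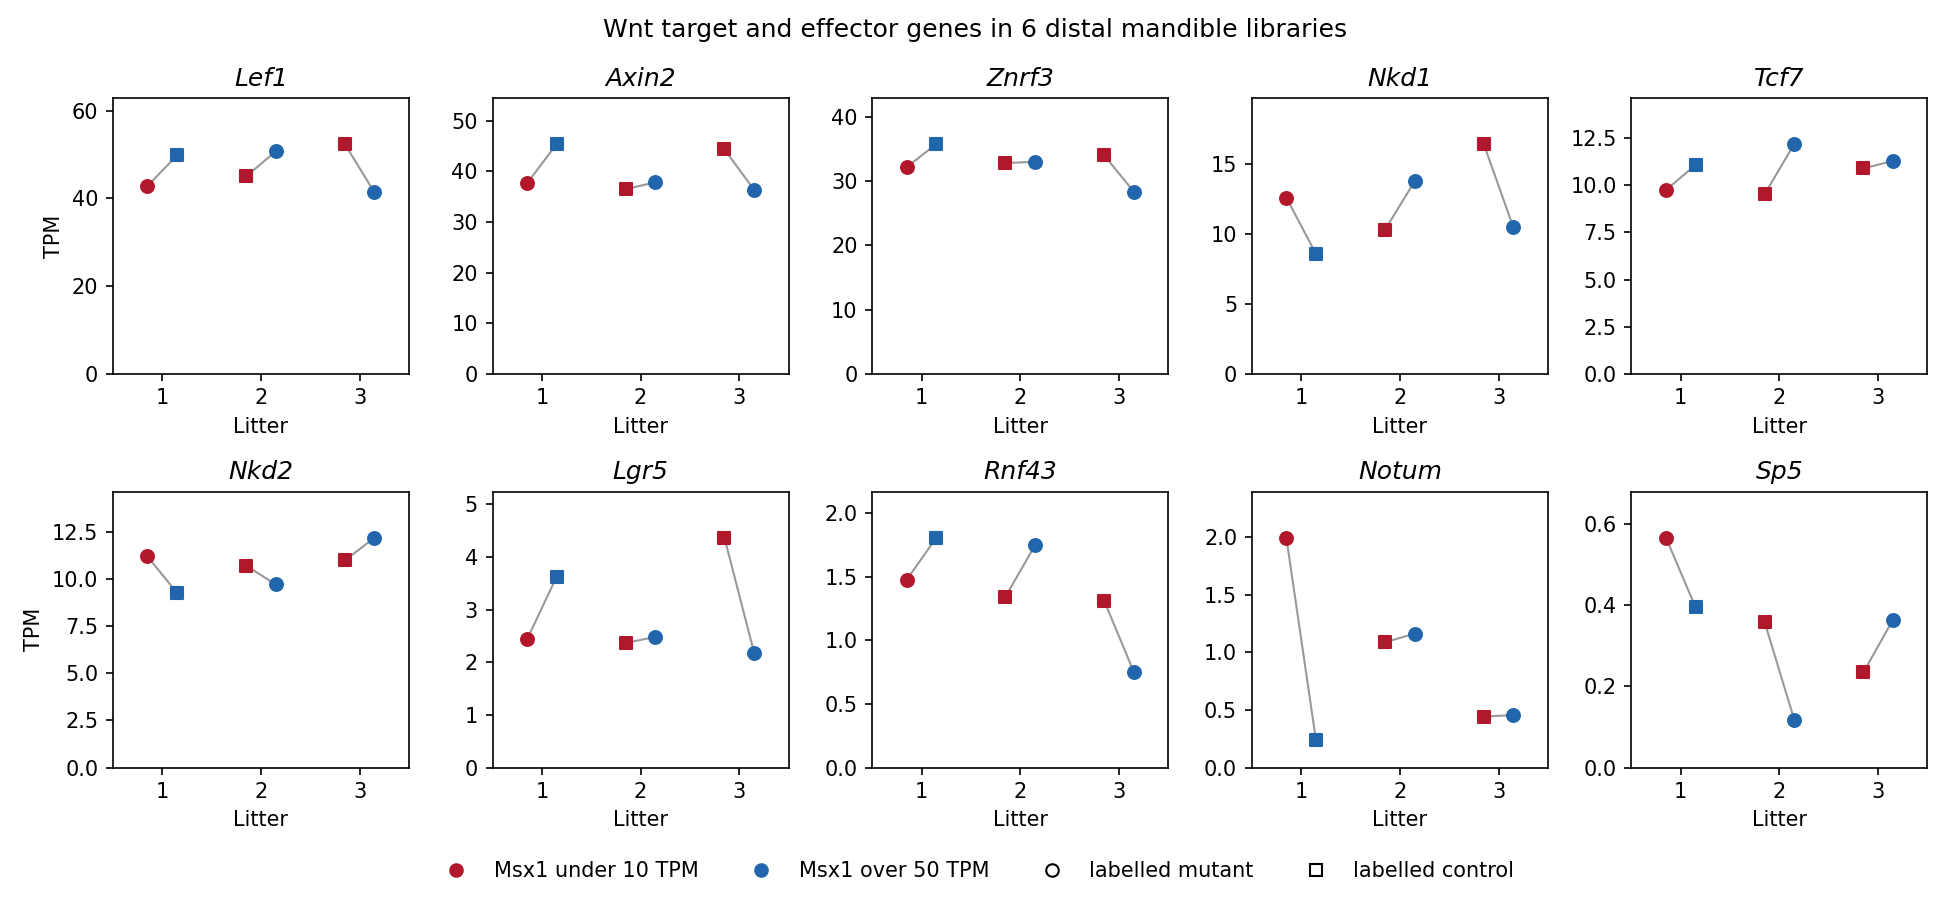
Abundance (TPM, vertical axis from 0, a separate scale for each gene) of the 10 genes by litter. Each point is 1 library, circles are labelled mutant and squares labelled control, red marks the littermate with Msx1 under 10 TPM and blue that with Msx1 over 50 TPM, and grey lines join littermates. Only for Tcf7 does the red point lie below the blue in every litter, and in Axin2 the control-labelled libraries of litters 1 and 3 (45.4 and 44.3 TPM) stand above the other 4.

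Neither nuclear effector gene passed a test, and Tcf7 alone among the 10 genes had the same order in all litters. Lef1 (chromosome 3, 131110471 to 131224356, GRCm38) encodes the TCF/LEF factor for which the family is partly named and is itself raised by Wnt signals. Litter 1 had 42.8 TPM of Lef1 under the mutant label and 49.8 TPM under the control label, litter 2 had 50.7 and 45.0 TPM, and litter 3 had 41.4 and 52.4 TPM. The littermate with less Msx1 was therefore the lower in litters 1 and 2 and the higher in litter 3, and the groups overlapped under either ordering. The authors' deposited table put Lef1 at -0.02 ± 0.15 on the log2 scale (fold change with the standard error given there; adjusted p = 1.00).

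Tcf7 (chromosome 11, 52252371 to 52283014) encodes TCF1, a second TCF/LEF factor that is also a Wnt target. It was at 9.75 TPM (labelled mutant) and 11.1 TPM (labelled control) in litter 1, at 12.2 and 9.53 TPM in litter 2, then 11.3 and 10.9 TPM for litter 3. In every litter the library with less Msx1 was the lower, at 0.880, 0.782 and 0.965 times its littermate, and the 3 libraries with less Msx1 all lay below the other 3. The difference in litter 3 was small, -0.05 on the log2(TPM + 1) scale. Of the 12152 genes that passed the filter, 11.9% were lower in the low-Msx1 library in all 3 litters, and in 4.95% the 3 lower-Msx1 libraries all lay below the others, so 1 of 9 tested members in this pattern is close to the background. In the authors' deposited table Tcf7 was at -0.20 ± 0.27 (unadjusted p = 0.461), with an interval of -0.72 to 0.33 computed from the table's standard error.

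The intracellular feedback genes showed no shared direction. Axin2 (chromosome 11, 108920349 to 108950783) encodes a scaffold of the beta-catenin destruction complex and is the most commonly used Wnt target. Its TPM were 37.6 under the mutant label and 45.4 under the control label in litter 1, 37.8 and 36.5 for litter 2, then 36.3 and 44.3 for litter 3. The control-labelled libraries of litters 1 and 3 stood above the other 4, which lay within 36.3 to 37.8 TPM, and of these 2 high libraries the former has high and the latter low Msx1. The littermate with less Msx1 was at 0.829, 0.964 and 1.22 times the other in litters 1 to 3. The authors' deposited table gave Axin2 a log2 fold change of -0.01 ± 0.15, with an interval from -0.31 to 0.28, which leaves room for levels between 0.809 and 1.22 times those of the other group.

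Nkd1 (chromosome 8, 88521354 to 88594884) and Nkd2 (chromosome 13, 73818534 to 73847631) encode the Naked cuticle proteins, which bind Dishevelled and dampen Wnt signalling. Nkd1 was at 12.6 (labelled mutant) and 8.57 TPM (labelled control) in litter 1, at 13.7 and 10.3 TPM in litter 2, then 10.5 and 16.4 TPM for litter 3. The low-Msx1 library thus had more Nkd1 in litters 1 and 3 (1.47 and 1.57 times) and less in litter 2 (0.749 times). Nkd2 varied less, at 11.2 and 9.27 TPM in litter 1, 9.72 and 10.72 TPM in litter 2, and 12.2 and 11.0 TPM in litter 3 (labelled mutant first). In Nkd2 the low-Msx1 library was the higher in litters 1 and 2 and the lower in litter 3, the reverse of Lef1 and Axin2. Their log2 fold changes in the authors' deposited table were 0.26 ± 0.28 for Nkd1 and 0.09 ± 0.22 for Nkd2, with unadjusted p of 0.350 and 0.693.

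Notum (chromosome 11, 120653788 to 120661175), which encodes a secreted enzyme that inactivates Wnt ligands by removing their lipid, had the widest relative spread of the 9 tested genes, with a coefficient of variation of 73.1% over the 6 libraries. Litter 1 had 1.99 TPM under the mutant label and 0.239 TPM under the control label, a ratio of 8.36, litter 2 had 1.16 and 1.09 TPM, and litter 3 had 0.455 and 0.442 TPM. The difference in litter 1 was not seen in the other litters, where the low-Msx1 library was at 0.935 and 0.971 times its littermate. The highest Notum library is also that with the most red blood cell RNA, whose part in the result was not tested. The authors' deposited table rests Notum on a base mean of 11.4 normalized counts, with a log2 fold change of 0.89 ± 1.08 (unadjusted p = 0.413).

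Sp5 (chromosome 2, 70474923 to 70477729), an Sp-family transcription factor gene and direct Wnt target whose promoter is printed above, stayed under 1 TPM in every library. It ranged from 0.118 TPM in the mutant-labelled library of litter 2 to 0.566 TPM in that labelled mutant of litter 1, with 0.394, 0.358, 0.364 and 0.234 TPM in the control-labelled libraries of litters 1 and 2, mutant of litter 3 and control of litter 3. The base mean in the authors' deposited table was 2.84 normalized counts. The interval of the log2 fold change ran from -3.24 to 4.20, so differences of either sign within it could not be told from none.

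The R-spondin module of the cell membrane joins a receptor, Lgr5, to the ubiquitin ligases Znrf3 and Rnf43, which remove Frizzled receptors until R-spondin holds them back. Lgr5 (chromosome 10, 115450311 to 115587780) was at 2.44 (labelled mutant) and 3.63 TPM (labelled control) in litter 1, at 2.48 and 2.37 TPM in litter 2, then 2.19 and 4.37 TPM for litter 3. As for Axin2, the control-labelled libraries of litters 1 and 3 were the highest and the other 4 lay close together, between 2.19 and 2.48 TPM. These 2 libraries also held the highest value for 24.3% and 30.0% of all tested genes as deposited, and for 17.3% and 22.2% after scaling by the median of ratios. Of the summed TPM of the listed genes, mitochondrial transcripts made up 8.03% in the control-labelled library of litter 1. They made up 6.02% to 6.51% in the other 5, and the part of either feature in the result was not tested. Znrf3 (chromosome 11, 5276324 to 5444847) had the smallest spread of all 10 genes, with a coefficient of variation of 7.54% over the 6 libraries. Its TPM were 32.2 and 35.8 in litter 1, 33.0 and 32.8 for litter 2, then 28.4 and 34.1 for litter 3 (labelled mutant first). Rnf43 (chromosome 11, 87662722 to 87735539) was at 1.48 and 1.81 TPM in litter 1, 1.75 and 1.34 TPM in litter 2, and 0.754 and 1.31 TPM in litter 3, the lowest value being that of the mutant-labelled library of litter 3. In all 3 genes of the module the low-Msx1 library was the lower in litters 1 and 2 and the higher in litter 3. In litter 2 the difference was small for Lgr5 and Znrf3, at -0.05 and -0.008 on the log2(TPM + 1) scale, and -0.23 for Rnf43. Their log2 fold changes in the authors' deposited table were 0.12 ± 0.37 for Lgr5, 0.03 ± 0.13 for Znrf3 and 0.02 ± 0.59 for Rnf43, with unadjusted p between 0.744 and 0.969.

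For 5 of the 9 tested genes the low-Msx1 library was therefore the lower in litters 1 and 2 and the higher in litter 3. These were Lef1, Axin2, Lgr5, Znrf3 and Rnf43. This pattern was chosen after its values were seen, and 19.5% of all tested genes share it. Nkd2 also turned in litter 3, in the opposite direction. The low-Msx1 library was the lower for 6 of the 9 members in litter 1, 8 in litter 2 and 3 in litter 3. In litter 2 the log2 differences of Axin2, Lgr5, Notum and Znrf3 were small, at -0.05, -0.05, -0.05 and -0.008. Of all tested genes 64.1% were lower in the low-Msx1 library in litter 1, 48.4% in litter 2 and 39.1% in litter 3, with median log2 differences of -0.09, 0.007 and 0.08. The tested genes as a whole thus shifted in the direction of the 5 genes in litters 1 and 3 but not in litter 2. After scaling by the median of ratios these medians lay between -0.004 and 0.002. All 5 genes had the same order after scaling, with smaller differences in litters 1 and 3. Axin2 was at -0.16, -0.06 and 0.18 and Lef1 at -0.11, -0.18 and 0.24 on the log2(TPM + 1) scale in litters 1 to 3. On scaled values Axin2 was at 43.5 and 42.2 TPM in the control-labelled libraries of litters 1 and 3 and at 36.6 to 38.9 TPM in the other 4. As deposited, the summed epithelial markers were also highest in these 2 libraries, at 141 and 138 TPM against 121 to 133 TPM in the others. After scaling they were at 136 and 131 TPM, with 135 TPM in the mutant-labelled library of litter 3 and 124 to 128 TPM in the other 3. Their part in the result was not tested.

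**Figure D2:**
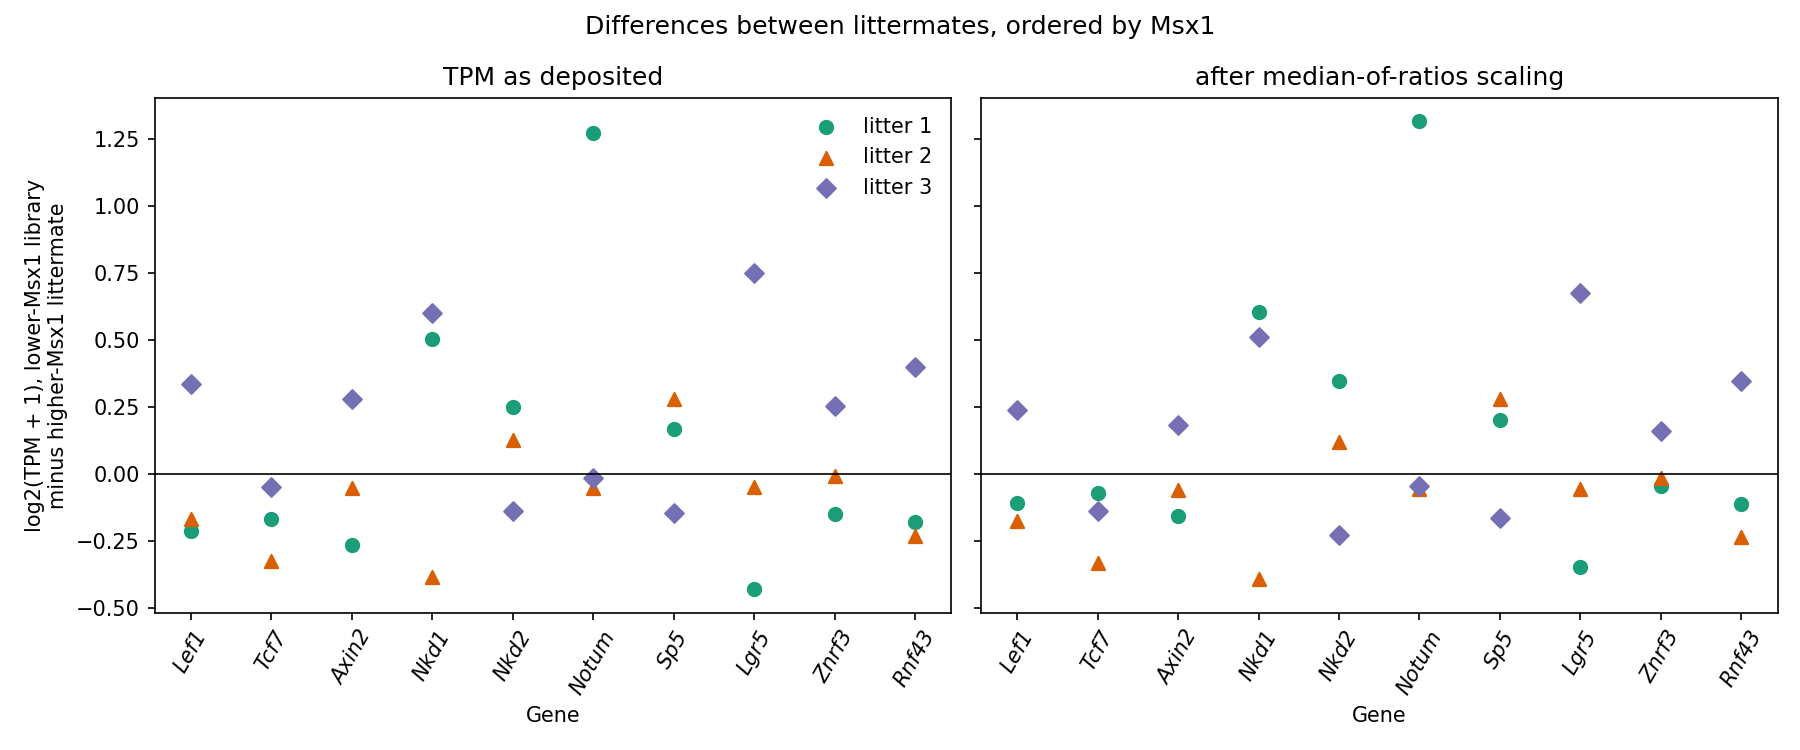
Difference in log2(TPM + 1) between the library with Msx1 under 10 TPM and its littermate with Msx1 over 50 TPM (vertical axis) for each gene, by litter, on TPM as deposited (left) and after median-of-ratios scaling (right). Points on both sides of 0 for 9 of the 10 genes show that littermates did not differ in the same direction in all litters. Tcf7 alone is below 0 in all 3, and the widest point is Notum in litter 1.

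Between the labelled groups no member passed the test. With limma on log2(TPM + 1), 0 of 12152 genes had an adjusted p under 0.05 (0% called, and 817 or 6.72% at an unadjusted p under 0.05), and 0 of the 9 members passed either threshold. Of the 9 members 5 had negative and 4 positive differences (mutant minus control label), with a median of -0.12. Over all tested genes 65.4% were negative and the median was -0.06. Lgr5 had the smallest adjusted p, at 2.37 ± 0.16 TPM (SD, n = 3) under the mutant label and 3.46 ± 1.01 TPM (SD, n = 3) under the control label, which is -0.38 ± 0.20 (SE) on the log2 scale (adjusted p = 0.729 from limma). Axin2 was at 37.3 ± 0.80 TPM (SD, n = 3) and 42.1 ± 4.86 TPM (SD, n = 3), a log2 difference of -0.16 with a 95% interval from -0.40 to 0.07 (limma adjusted p = 0.752). These differences moved with single libraries. Without the control-labelled library of litter 2 they were -0.57 for Lgr5 and -0.26 for Axin2, without that of litter 3 Lgr5 was at -0.23, and without that of litter 1 Axin2 was at -0.11. After median-of-ratios scaling Axin2 was at -0.09. The labelled groups overlapped in all 10 genes, whereas 13.1% of all tested genes had no overlap. Because Msx1 contradicts the labels in 4 libraries, this comparison does not separate low from high Msx1. Without those libraries only litter 1 remains, and its values stand above with no test.

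The authors' deposited table, in which Msx1 has a log2 fold change of -5.19 ± 0.26, called none of the 10 genes. Sp5 had no adjusted p there. By label, Msx1 was at 1.90, 78.8 and 73.3 TPM (mutant) and at 84.1, 2.61 and 1.99 TPM (control). Groups made up by these labels do not give a fold change of that size, so the deposited table does not repeat the labelled comparison. It states neither which libraries formed its groups nor its direction. Groups made up by Msx1 level, at 1.90 to 2.61 TPM against 73.3 to 84.1 TPM, would give a fold change of that size. The deposited table may therefore compare these same 6 libraries by Msx1 level. Its fold changes are thus not taken as independent of the values per litter above. Signs are read here relative to Msx1, so that a negative value goes with a lower level where Msx1 is lower. Of the genes with an adjusted p, 0.0961% were past 0.05, and 1.85% of those with a p-value had an unadjusted p under 0.05. Of the 10 members 3 were negative and 7 positive, beside 49.8% negative over all genes with a p-value, and their median was 0.06 beside 0.001. None had an unadjusted p under 0.05. The 3 negative genes were Lef1, Tcf7 and Axin2.

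**Figure D3:**
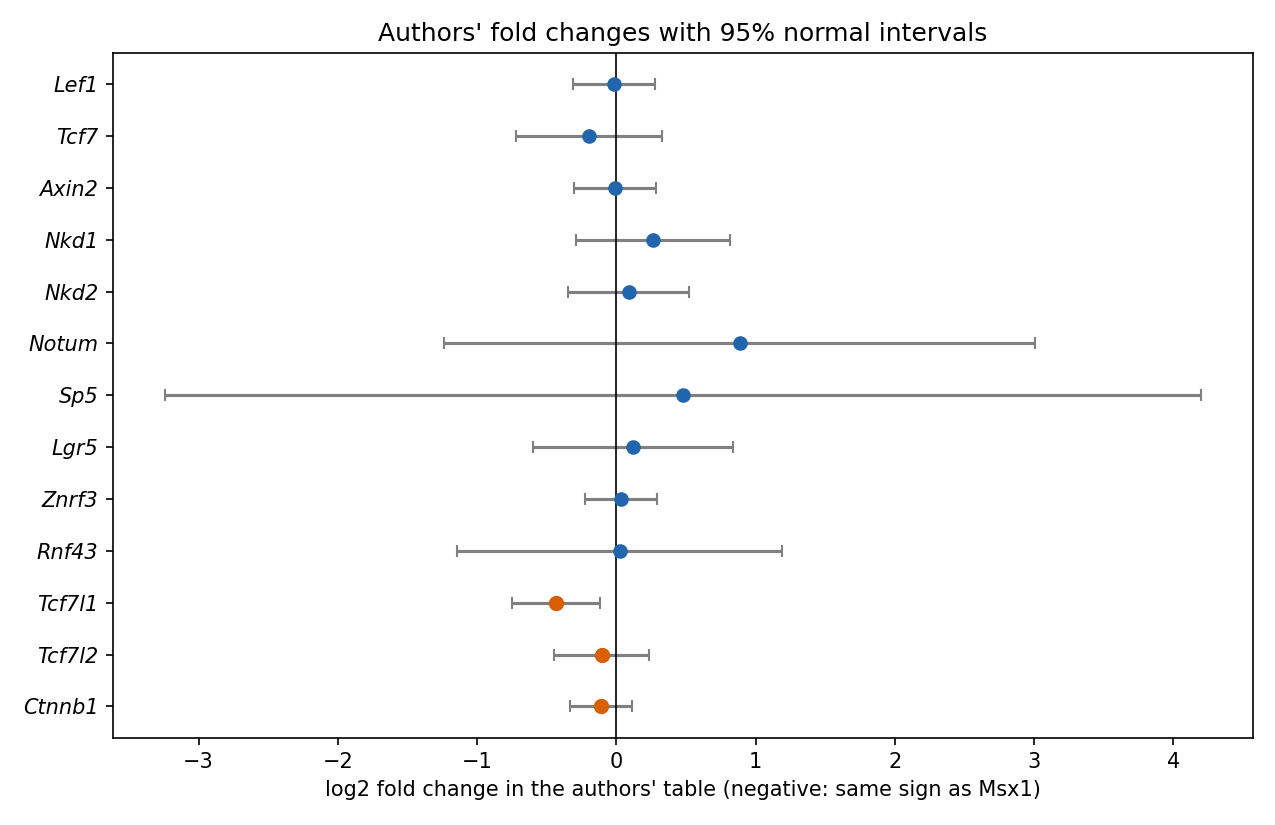
Log2 fold change (horizontal axis) of the 10 genes (blue) and of Tcf7l1, Tcf7l2 and Ctnnb1 (orange) as given in the authors' deposited table, with 95% normal intervals computed from its standard errors; negative values share the sign of Msx1. All 10 blue intervals cross 0, from the narrow ones of Znrf3, Axin2 and Lef1 to that of Sp5, which spans -3.24 to 4.20.

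How small a difference could have been seen depended on expression. In the authors' deposited table Znrf3, Lef1 and Axin2 had base means of 1267, 996 and 905 normalized counts, and their intervals lay within 0.807 to 1.23 times. Larger changes of these 3 genes lie outside the intervals, and smaller ones within them could not be told from none. Nkd2, Nkd1, Tcf7 and Lgr5, at 325, 226, 188 and 119 normalized counts, had intervals that reached from 0.608 to 1.79 times. For Rnf43, with a base mean of 34.9, the interval was 0.453 to 2.28 times, and for Notum 0.424 to 8.05 times.

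**Figure D4:**
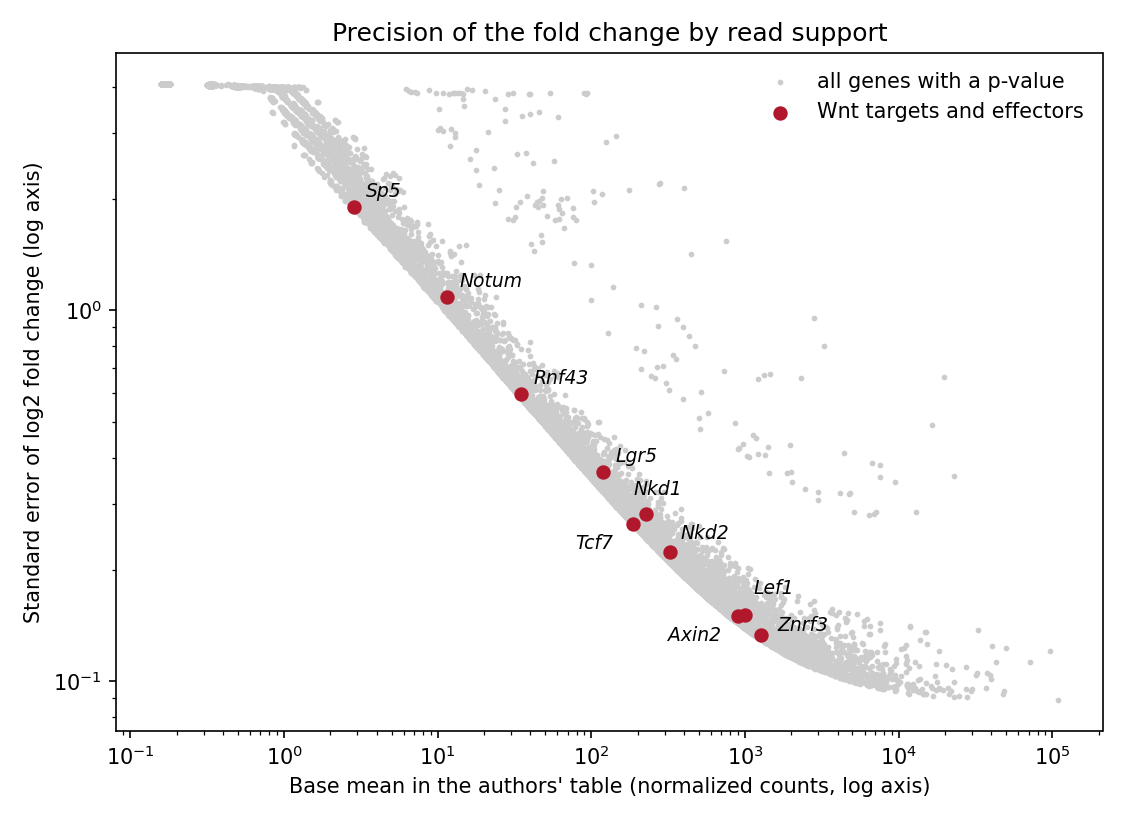
Standard error of the log2 fold change (vertical log axis) against base mean (horizontal log axis) in the authors' deposited table, for all genes with a p-value (grey) and the 10 Wnt genes (red). The 10 genes lie within the band of the other genes, with standard errors from 0.13 (Znrf3) to 1.90 (Sp5).

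Other genes of the pathway were examined as a list of 51 receptors, cytoplasmic components, nuclear partners and further targets. Their log2 fold changes in the authors' deposited table had a median of -0.01, with 29 below and 22 above 0, and none passed the adjusted threshold. Of all genes with a p-value there, 49.8% were negative. A single gene of the 51, Tcf7l1, had an unadjusted p under 0.05, where 1.85% of all genes with a p-value did. By compartment, 11 of 14 receptors, 4 of 10 cytoplasmic components, 7 of 15 nuclear genes and 7 of 12 further targets were negative. The medians, in the same order, were close to 0, at -0.02, 0.08, 0.009 and -0.02. Between the labelled groups 46 of the 51 could be tested, and 0 passed limma's adjusted p. At an unadjusted p under 0.05 there were 4 of the 46, beside 6.72% of all tested genes. The differences were negative for 34 and positive for 12 with a median of -0.08, beside the 65.4% negative over all tested genes. By Msx1 order, 4 of the 46 were lower and 7 higher in the low-Msx1 library in all 3 litters, where 1443 and 1314 of the 12152 tested genes were.

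Tcf7l1, which encodes TCF3, the TCF/LEF factor best known as a repressor of Wnt targets, was at 59.2 (labelled mutant) and 71.9 TPM (labelled control) in litter 1, 80.4 and 53.7 TPM in litter 2, and 85.2 and 62.9 TPM in litter 3. The library with less Msx1 was the lower in each litter, and the 3 libraries with less Msx1 all lay below the other 3, as for 4.95% of all tested genes. The authors' deposited table gave Tcf7l1 a log2 fold change of -0.43 ± 0.16 (unadjusted p = 0.00698, adjusted p = 1.00), so it did not pass over all genes. Tcf7l2, which encodes TCF4, was at 21.3 and 27.3 TPM in litter 1, 27.4 and 28.5 TPM in litter 2, and 30.1 and 29.7 TPM in litter 3 (labelled mutant first), with -0.11 ± 0.17 in the same deposited table.

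Set side by side, the 4 TCF/LEF factor genes differed in level, and since TPM are corrected for length their shares can be compared. Tcf7l1 made up a median of 44.7% of their summed TPM over the 6 libraries, Lef1 31.6%, Tcf7l2 17.5% and Tcf7 6.98%. The summed TPM was 133 and 160 in litter 1, 171 and 137 for litter 2, then 168 and 156 for litter 3 (labelled mutant first), lower in the low-Msx1 library each time. In litter 3 that order rested on Tcf7l1. The sum of the other 3 genes was 73.9 and 88.2 TPM in litter 1, 90.3 and 83.1 TPM in litter 2, and 82.8 and 93.0 TPM in litter 3, so in litter 3 it was the higher in the low-Msx1 library. The sum was formed after the values of its members were seen and was not tested.

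Ctnnb1, the beta-catenin gene, was among the most abundant of the list, at 151 to 195 TPM. The lowest Ctnnb1 value was that of the control-labelled library of litter 3, which has low Msx1, while the 2 low-Msx1 libraries of litters 1 and 2 had 184 and 182 TPM against 195 and 181 TPM in their littermates. The authors' deposited table had it at -0.11 ± 0.11. Ccnd1, a cyclin gene often listed as a Wnt target, had the highest mean of the list (191 TPM), and Csnk1a1, a kinase gene of the destruction complex, had 134 TPM; their log2 fold changes in the authors' deposited table were 0.02 ± 0.10 and -0.02 ± 0.10. After Tcf7l1, the genes with the smallest unadjusted p in that deposited table were Tle2, a co-repressor gene, at -0.84 ± 0.53, Dvl1, a Dishevelled gene, at 0.76 ± 0.58, Fzd7, a Frizzled receptor gene, at -0.18 ± 0.14, and Bambi, which encodes a pseudoreceptor, at -0.27 ± 0.22, with unadjusted p from 0.115 to 0.218. Tle2 was lowest in the control-labelled libraries of litters 2 and 3 (4.37 and 5.40 TPM), and its low-Msx1 library in litter 1 had 10.2 TPM against 11.0 TPM in the littermate.

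The members were not the genes nearest to Axin2 across libraries. Predicted genes, Rik and pseudogene names were left out when the nearest genes were named. Among the rest, Atrn, Bdp1 and Zfc3h1 had the centred log2(TPM + 1) profiles nearest to that of Axin2 over the 6 libraries. Their Euclidean distances were 0.05, 0.05 and 0.06. Among the members Znrf3 was nearest to Axin2 (distance 0.21, rank 799 of 12151 genes, none left out by name), then Lef1 (0.23, rank 1070). Notum was the farthest (1.29, rank 11611). These distances rest on 6 libraries and are given as a description. They were taken on TPM as deposited, without scaling, so they include the shifts of whole libraries given above. They also grow with the spread of a gene, and Notum had the widest relative spread of the tested members.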

How the data were processed

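Polyadenylated RNA of 6 distal mandibles was sequenced, and the authors deposited 1 TPM value per gene for each library. Salmon 1.5.2, DESeq2 and the mm10 build are named in the submitters' processing notes, without roles or settings. TPM keep no record of depth, so the depth per library is unknown. The authors also deposited a comparison table with, per the file headers, a base mean (a signal, in DESeq2 output the mean of normalized counts), a log2 fold change and its standard error, a Wald score, and p-values and adjusted p-values; the direction is not stated. Its 95% intervals were computed here as the fold change plus or minus the normal quantile times the standard error.

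The labelled groups were compared with limma 3.58.1 in R 4.3.3 (variance trend, robust moderation) on log2(TPM + 1), over the 12152 genes that reached 1 TPM in 3 or more libraries, with Benjamini-Hochberg adjustment over all of them at 0.05. Adding the pseudocount of 1 makes changes of low genes appear smaller. Each label has 3 embryos; exact permutation of 3 against 3 cannot give a two-sided p below 0.1 and was not used. Labelled litters pair the samples, per the series' design text; deviations of littermates from their group means correlated at -0.05, -0.03 and -0.03 over genes.

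The members and gene lists were chosen with earlier results of these data known. Named were all members, 5 pathway genes with the smallest p in the authors' table, the 3 most abundant, and Ctnnb1, Tcf7l1 and Tcf7l2. The 3 genes nearest to Axin2, with predicted genes, Rik and pseudogene names left out, were also named. Gene coordinates are from GENCODE M21 (GRCm38), and promoters from RefSeq (GRCm38.p6). Marker lists for 8 cell types were summed. Alternatives were another pseudocount, 2 filters, 3 scalings, a fit without trend and robust moderation, litter as a block and leaving out each library.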

Additional observations from a re-analysis of the deposited data

How the results depend on the processing

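No member passed limma's adjusted threshold of 0.05 under any of the settings run, with a smallest adjusted p of 0.394. The count of genes called between the labelled groups was 0 under each pseudocount, filter, scaling and moderation tried. It ranged from 0 to 1 when each library was left out: leaving out the mutant-labelled library of litter 1 called Rpl29, and leaving out its control-labelled littermate called Gm5244. With the replicate block (litter as a paired term) the count was also 0, with 770 genes at an unadjusted p under 0.05, and no call changed. Over the left-out libraries the log2 difference of Nkd1 ranged from -0.088 (reversed, without the control-labelled library of litter 1) to 0.34, and that of Rnf43 from -0.25 to 0.074 (reversed, without the mutant-labelled library of litter 3). The other member differences kept their sign in each fit that tested them, but not their size. Over the left-out libraries Lgr5 ranged from -0.57 to -0.23, Axin2 from -0.26 to -0.11, Lef1 from -0.21 to -0.07, Znrf3 from -0.17 to -0.07, Nkd2 from 0.02 to 0.17, Tcf7 from 0.002 to 0.15 and Notum from 0.19 to 0.71. Notum was at 0.92 with a pseudocount of 0.1 TPM. The count of tested members with the same order by Msx1 in every litter was 1 (Tcf7) under each pseudocount and scaling, and 2 to 7 when a litter was left out. It was 2 without litter 1 (Tcf7 and Notum), 2 without litter 2 (Tcf7 and Nkd1) and 7 without litter 3, when Nkd1 and Notum alone differed in sign. The count of negative members in the authors' deposited table stayed at 3 with base means of at least 10 or 100. Sp5 was fitted only without the filter. Low read support limits Sp5, Notum and Rnf43.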

Other observations

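Markers of other cell types in the dissected tissue were also compared between libraries, as values. Endothelial markers, such as Pecam1 and Kdr, summed to 69.5 to 83.4 TPM over the 6 libraries, and neuronal markers to 12.2 to 16.3 TPM. Muscle progenitor markers summed to 12.3 to 19.1 TPM, with 1 of 5 reaching 1 TPM in at least 3 libraries, glial and crest precursor markers to 3.77 to 5.31 TPM, and macrophage markers to 9.02 to 15.7 TPM. None of the markers was listed at 0 in all libraries.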
